A study of Homo sapiens with 12 samples.

Results

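The RNA methyltransferase METTL16, its mRNA target MAT2A and 6 further genes of the methionine cycle, or close relatives of such genes, were described across 6 RIP-seq peak lists from HepG2, an established cell line of human liver cancer. In RIP-seq an antibody pulls down a protein together with its RNA, and a peak is a stretch of exons where the pulled-down RNA exceeds the input, the RNA of the same lysate before the pull-down. The 8 genes were chosen by name: METTL16, MAT2A, MAT2B, AHCY, AHCYL1, AHCYL2, MTR and MTHFD1. All 8 had a peak in at least 1 list, and together they carried 80 of the 101848 peaks and were 8 of the 10830 genes named in the lists. The series compared the transcripts bound by METTL16 with those bound by eIF3a and eIF3b, subunits of the translation initiation factor eIF3. It held 12 samples, 2 RIP samples and 2 inputs for each protein. Stable HepG2 lines carried pmiRNA1-3XFlag-METTL16, pSIN4-3XFlag-eIF3a or pSIN4-3XFlag-eIF3b, so every group overexpressed a tagged protein, and cells were cross-linked with ultraviolet light. Per the labels, METTL16 and eIF3b were recovered with a Flag antibody and eIF3a with an antibody against eIF3a itself, so protein and antibody cannot be told apart there. All 6 peak lists, however, carry "flag" in their names, which conflicts with the label for eIF3a. Lists from a control antibody or from cells without a transgene were not used here.

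S-adenosylmethionine, the methyl donor of nearly all cellular methylation, is made from methionine by methionine adenosyltransferase, whose widely expressed catalytic subunit is coded by MAT2A. After the methyl group is passed on, S-adenosylhomocysteine remains, AHCY splits it into adenosine and homocysteine, and MTR remethylates homocysteine to methionine with a methyl group from folate. METTL16 methylates an adenosine in U6 small nuclear RNA and in hairpins of the MAT2A 3′ UTR. Its dwelling on that 3′ UTR when S-adenosylmethionine is scarce is known to promote splicing of the last MAT2A intron.

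The sequences below are the 6 places in the MAT2A 3′ UTR that match the METTL16 recognition sequence, and are shown because the question for MAT2A is whether peaks cover them. Capitals mark the match to TACAGAGAA or TACAGAAAA, and the lower case letters are the 10 bases on either side. All are on GRCh38, read 5′ to 3′ on the transcript strand, which alone was searched.
MAT2A site 1 (chr2:85543812-85543820, plus strand): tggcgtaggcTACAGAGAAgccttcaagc
MAT2A site 2 (chr2:85544599-85544607, plus strand): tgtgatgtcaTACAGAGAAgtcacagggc
MAT2A site 3 (chr2:85544784-85544792, plus strand): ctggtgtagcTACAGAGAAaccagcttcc
MAT2A site 4 (chr2:85544899-85544907, plus strand): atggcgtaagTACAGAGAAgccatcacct
MAT2A site 5 (chr2:85545014-85545022, plus strand): caaggtgtccTACAGAAAAaccttgggtt
MAT2A site 6 (chr2:85545122-85545130, plus strand): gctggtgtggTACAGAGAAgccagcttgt
The first site began 40 bases into the 3′ UTR and the last 1350 bases into it. In 29-base windows folded with RNAfold, sites 4, 5 and 6 had all 9 motif bases unpaired, sites 1 and 2 had 7 and site 3 had 6. None of the canonical transcripts of the other 7 genes held either spelling. Among 7825 windows of 1509 bases, the length of the MAT2A 3′ UTR, taken from the start of annotated 3′ UTRs at least that long, 326 windows (4.17%) held 1 or more matches. Of these, 11 held 2 or more, and 1 window, that of MAT2A itself, held 6. Both spellings were taken from U6 RNA and the MAT2A hairpins themselves. The lead of MAT2A thus follows in part from how the motif was chosen, and is no separate evidence. The core ACAGA alone was common, with 8 matches in MAT2A, 11 in METTL16 and 19 in MTR. A match is a description of the letters and not a measured binding site.

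The 6 lists differed in length and composition. They held between 12921 and 21733 peaks on 5226 to 8166 genes, fewest in eIF3a replicate 2. The METTL16 lists held 13199 and 13136 peaks, the eIF3a lists 21733 and 12921, and the eIF3b lists 20832 and 20027. Both METTL16 lists were thus shorter than every eIF3 list but eIF3a replicate 2. The part of list length in the coverage differences below was not tested. The bases under peaks had a G+C content of 59.7% and 61.7% in METTL16 replicates 1 and 2 and of 59.0% in eIF3b replicate 1, against 53.8% to 54.6% in the other 3 lists and 48.2% over the canonical transcripts of all genes with a peak. Of 9 hepatocyte and HepG2 markers, 8 had a peak in at least 1 list, but ALB had peaks only in METTL16 replicate 2 and TTR in none. Of the markers of other cells, COL1A1 (fibroblasts) had no peak, PTPRC (leukocytes) had 1 in METTL16 replicate 1, and PECAM1 (endothelium) had 1 in each eIF3 list. Peaks report enrichment over input and not abundance, so these lists check the cell type only weakly. The lists hold no read counts, the sequencing depth is unknown, and the absence of a peak does not show that a transcript was not bound.

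A peak in both replicates of a protein was taken as binding. METTL16 bound 4 of the 8 genes, namely METTL16, MAT2A, AHCYL1 and MTR, where 42.6% of all genes with a peak in any list were bound by it. eIF3a bound 6 of the 8, the same 4 with AHCYL2 and MTHFD1, against 42.4% of all genes. eIF3b bound 4 of the 8, again METTL16, MAT2A, AHCYL1 and MTR, against 60.0% of all genes. MAT2B and AHCY had peaks in METTL16 replicate 2 only. No test was made on counts over 8 genes.

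**Figure D1:**
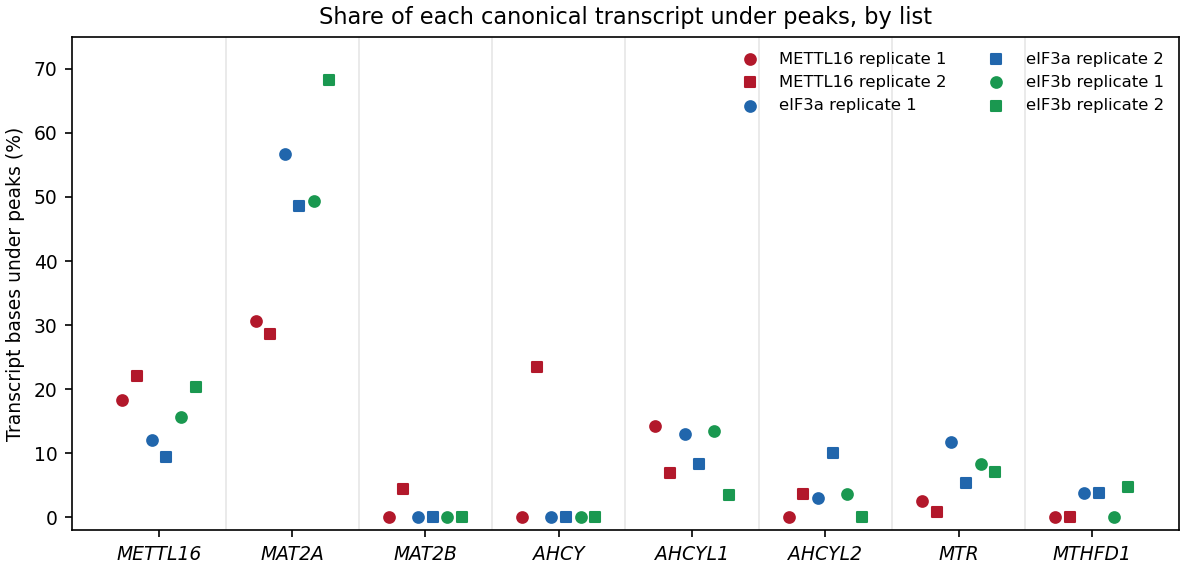
Percent of the bases of each canonical transcript that lay under peaks (vertical axis), for the 8 genes (horizontal axis) in the 6 lists. Each point is 1 list, coloured by protein, with circles for replicate 1 and squares for replicate 2. MAT2A had the highest share in every list, from 28.6% to 68.3%, and its METTL16 points lie below its eIF3 points, as do those of MTR.

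METTL16 codes for the methyltransferase itself (chr17:2405562-2511891, minus strand, 10 exons, canonical transcript of 5740 bases). Its mRNA had 3 or 4 peaks in every list, all in exons 9 and 10, which hold the end of the coding sequence and a 3′ UTR of 3921 bases. No peak touched the 5′ UTR or exons 1 to 8. The peaks formed 3 sites that recurred in all 6 lists, 1 near the end of the coding sequence and 2 in the 3′ UTR. Outside these sites, METTL16 replicate 2, eIF3a replicate 1 and eIF3b replicate 2 each had a further 3′ UTR peak, with a fold enrichment of 3.65, 3.01 and 12.5. Those of METTL16 replicate 2 and eIF3a replicate 1 overlapped in part, and that of eIF3b replicate 2 lay elsewhere.

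In the coding sequence, both METTL16 lists held the same peak, chr17:2420038-2420772, with 601 exonic bases in exons 9 and 10. Its fold enrichment was 4.15 in METTL16 replicate 1 and 6.11 in replicate 2. The eIF3a lists had shorter peaks of 181 and 121 bases inside it, with a fold enrichment of 2.35 and 2.02. The eIF3b peaks were 331 and 391 bases long, with a fold enrichment of 7.93 and 4.14. Fold enrichment therefore overlapped between the METTL16 and eIF3 lists, whereas the peaks' log10 p did not. It was -234 and -346 in the METTL16 lists, -3.58 and -3.88 in the eIF3a lists and -43.4 and -11.8 in the eIF3b lists.

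The share of METTL16 coding bases under peaks was 35.6% in both METTL16 lists. It was 10.7% and 7.16% in the eIF3a lists and 19.6% and 23.1% in the eIF3b lists. Both METTL16 values lay above all 4 eIF3 values, a pattern that 5.10% of all genes showed. The difference of 20.4 percentage points had p = 0.0667 in an exact two-sided permutation test over lists, the smallest that 2 against 4 lists allow, and 0.698 after Benjamini-Hochberg adjustment over all genes. In the METTL16 lists, 120 coding bases lay under a peak in both replicates and in no eIF3 list. The METTL16 line also expressed the tagged METTL16 transgene, and coding reads of the transgene and of the gene itself cannot be told apart. Whether the insert carried untranslated sequence is not given in the sources used here.

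By fold enrichment, the highest METTL16 peaks lay in the 3′ UTR. At chr17:2417162-2417342 (181 bases, G+C content 56.4%), all 6 lists had a peak. The whole peaks over this stretch were 181 to 300 bases long. Their fold enrichment was 67.5 and 38.1 in the METTL16 lists, 7.16 and 6.53 in the eIF3a lists, and 10.5 and 16.9 in the eIF3b lists. Both METTL16 values exceeded all 4 eIF3 values, which held for 8.0% of 3425 stretches under a peak in all 6 lists. The ratio of the geometric means, 50.7 in METTL16 and 9.54 in eIF3 lists, was 5.31 (exact permutation p = 0.0667, adjusted over all stretches 0.936). The median ratio over all stretches was 1.08, and 99.6% of stretches had a ratio no higher than this one. The log10 p overlapped, at -35.5 and -14.6 with METTL16 against a range of -28.7 to -6.16 with eIF3. This stretch was singled out after its values were seen.

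The other 3′ UTR site, chr17:2418361-2418421 (61 bases), did not separate the proteins. The whole peaks over it were 151 to 301 bases long. Their fold enrichment was 10.2 and 11.3 in the METTL16 lists, 10.5 and 3.67 in the eIF3a lists, and 30.5 and 9.91 in the eIF3b lists. The ratio of geometric means was 1.03 (exact permutation p = 0.8). The 3′ UTR share under peaks was also similar, 11.5% and 16.9% in the METTL16 lists against 10.8% to 19.9% in the eIF3 lists. Over the whole transcript, coverage was 18.3% and 22% against 9.46% to 20.4%, a difference of 5.74 percentage points (exact permutation p = 0.2, adjusted 0.763).

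**Figure D2:**
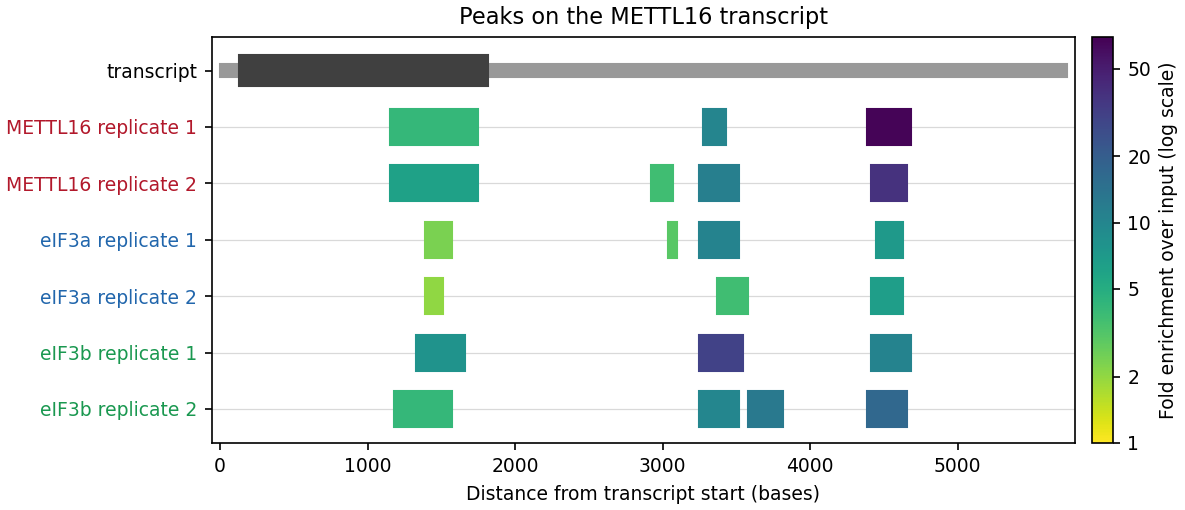
Peaks on the METTL16 transcript in the 6 lists, drawn along the canonical transcript (horizontal axis, bases from its start). The top bar shows the untranslated regions (thin) and the coding sequence (thick), and colour gives the fold enrichment over input on a log scale. The darkest peaks, 67.5 and 38.1, lie at the 3′ UTR site of the METTL16 lists, and the coding peak is longest in the same lists.

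MAT2A (chr2:85539168-85545281, plus strand, 9 exons, canonical transcript of 2817 bases with a 3′ UTR of 1509) was covered over most of its coding sequence in the eIF3 lists and in parts in the METTL16 lists. Each eIF3 list had a single peak from exon 1 into exon 9, with a fold enrichment of 6.32 and 3.34 for eIF3a and of 4.29 and 6.98 for eIF3b. The log10 p of these peaks lay between -108 and -40.6. METTL16 replicate 1 had a peak in exons 1 to 5 (fold enrichment 4.82) and another in exons 6 and 7 (5.15). METTL16 replicate 2 had a peak of 90 bases in exon 1 (2.44), one of 180 bases in exons 8 and 9 (3.9) and one in the 3′ UTR (5.27). The METTL16 replicates thus shared only 90 bases, chr2:85539276-85539365, which hold the start codon and were under a peak in all 6 lists.

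The share of MAT2A coding bases under peaks was 69.3% and 21.7% in the METTL16 lists, 100% and 94.2% in the eIF3a lists and 99.2% in both eIF3b lists. Coverage of the whole transcript was 30.7% and 28.6% in the METTL16 lists, 56.7% and 48.6% in the eIF3a lists and 49.3% and 68.3% in the eIF3b lists. For both shares, the METTL16 values lay below all eIF3 values, a pattern shown by 11.9% of genes for coding sequences and 15.6% for whole transcripts. The difference was -26.1 percentage points for the transcript, with means of 29.7% ± 1.48 (SD, n = 2) and 55.7% ± 9.14 (SD, n = 4), exact permutation p = 0.0667, adjusted 0.65. For the coding sequence it was -52.7 (exact permutation p = 0.0667, adjusted 0.698). When peaks under 4-fold enrichment were dropped, the groups overlapped for the transcript (difference -15.5, exact permutation p = 0.6).

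Ranked among genes by its smallest peak p-value, MAT2A reached percentiles of 73.3 and 58.7 with METTL16. It stood at 98.2 and 81.9 in the eIF3a lists and at 91.9 and 97.5 in the eIF3b lists. The METTL16 values were again below all eIF3 values, as for 18.8% of the 2730 genes with a peak in every list. The METTL16 transcript showed the opposite order, with 98.9 and 99.0 for METTL16 RIP and 34.9 to 82.1 for eIF3 RIP, as for 4.40% of these genes. In the METTL16 lists, that rank was set by the coding peak (log10 p -234 and -346). There, reads of the transgene and of the gene itself cannot be told apart.

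The 3′ UTR with the METTL16 sites was covered differently in each list. METTL16 replicate 1 had no peak there. METTL16 replicate 2 had a peak of 536 bases, chr2:85544596-85545131, with a log10 p of -10.5. eIF3a replicate 1 had a peak at chr2:85543971-85544239 (fold enrichment 3.49) and replicate 2 one at chr2:85545012-85545220 (3.44), which did not touch each other. eIF3b replicate 1 had a peak of 90 bases (1.75) and replicate 2 one of 625 bases (5.18), which contained the peak of replicate 1. The share of 3′ UTR bases under peaks was 0% and 35.5% in the METTL16 lists, 19.2% and 13.9% in the eIF3a lists, and 5.96% and 41.4% in the eIF3b lists. The groups overlapped, with a difference of -2.34 percentage points (exact permutation p = 0.867). No 3′ UTR base lay under a peak in both METTL16 replicates.

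Of the 6 sites shown above, METTL16 replicate 1 covered 0, and its nearest peak ended 317 bases before site 1. METTL16 replicate 2 covered 5, all but site 1, which was 79 bases from its nearest peak. eIF3a replicate 2 covered sites 5 and 6. eIF3a replicate 1 and both eIF3b lists covered none, although their peaks came within 20 and 49 bases of site 1. Site 1 lay under no peak in any list. Coverage of the sites by METTL16 therefore rests on replicate 2 alone.

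The last 562 bases of the MAT2A transcript overlap GGCX, a gene on the opposite strand that codes for a vitamin K-dependent carboxylase. METTL16 replicate 2 and eIF3a replicate 2, which cover sites, were also the only lists with a GGCX peak over MAT2A exons. In METTL16 replicate 2 that peak was chr2:85544810-85545139 (fold enrichment 5.64) and shared 322 bases with the MAT2A peak. In eIF3a replicate 2 it was chr2:85545019-85545348 (3.35) and shared 202 bases. Library preparation kept strand, but whether peak calling used it is not given in the sources used here, so reads of MAT2A and GGCX cannot be told apart in the overlap. Site 2 lies outside GGCX and was covered in METTL16 replicate 2.

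**Figure D3:**
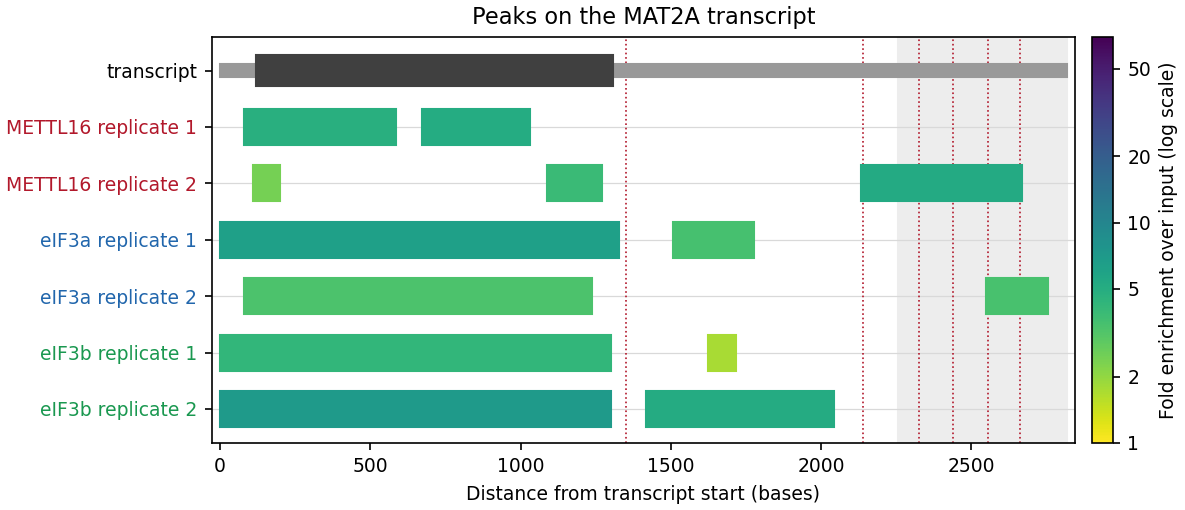
Peaks on the MAT2A transcript in the 6 lists, drawn along the canonical transcript (horizontal axis, bases from its start), with colour for the fold enrichment over input on a log scale. Dotted lines mark the 6 METTL16 sequence matches, and the grey band marks the 562 bases that overlap GGCX on the other strand. The eIF3 lists cover the coding sequence (thick bar) in 1 peak each, and 5 of the 6 matches lie under a peak of METTL16 replicate 2.

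The genes whose ranks were most like those of MAT2A were found among the 2730 genes with a peak in every list, by the mean absolute difference of the percentile by p over the 6 lists. They were SRSF11 (2.21), ANAPC16 (2.47), CCAR1 (2.48), SRSF5 (2.99) and KPNB1 (3.68), with a median difference of 21.4 over all genes. Because they were chosen by these same percentiles, an order like that of MAT2A follows from the choice. Each ranked lower in both METTL16 lists than in both eIF3b lists. SRSF11, for example, stood at 68.8 and 60.7 with METTL16 and at 82.2 to 98.5 with eIF3. Against eIF3a the order did not hold for SRSF5, at 78.9 in METTL16 replicate 1 and 78.1 in eIF3a replicate 2. Nor did it hold for KPNB1, at 85.9 and 84.5 in the same lists.

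MAT2B (chr5:163503114-163519558, plus strand) codes for the regulatory subunit that joins the MAT2A protein. It had a single peak in all lists together, 91 coding bases in exon 4 in METTL16 replicate 2, with a fold enrichment of 2.17 and a log10 p of -3.6. It covered 4.41% of the transcript.

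AHCY (chr20:34280268-34311802, minus strand), the hydrolase that removes S-adenosylhomocysteine, likewise had peaks in METTL16 replicate 2 only. One spanned exons 2 to 4 (268 bases, fold enrichment 2.63, log10 p -197) and one exons 6 and 7 (238 bases, 2.39, -171). Together they covered 39% of the coding sequence and 23.5% of the transcript. By p, AHCY was among the first 101 of 6337 genes in that list, but its fold enrichment was below that of most genes there, at percentile 23.7. Of those 101 genes, 13 had no peak in METTL16 replicate 1, against 1725 of all 6337 genes, and 12 of the 13 were in no other list at all.

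AHCYL1 (chr1:109984765-110023742, plus strand, transcript of 3943 bases) codes for an AHCY-like protein, also called IRBIT, that binds the inositol trisphosphate receptor. Most of its peaks fell near the ends of the mRNA. At the 5′ end, both METTL16 lists had a peak in exon 1 over the start codon, with a fold enrichment of 3.72 and 2.38. Both eIF3b lists did too, with 5.49 and 1.63, and the 4 lists shared chr1:109985035-109985124. Neither eIF3a list had a peak there. The shared 90 bases had a G+C content of 72.2%. The eIF3a lists were among the 3 with the lower G+C content under peaks, but so was eIF3b replicate 2 (54.6%), which had a peak there. The part of G+C content in this difference was not tested.

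At the 3′ end of AHCYL1, the eIF3a lists had peaks of 390 and 330 bases with a fold enrichment of 2.43 and 1.73. METTL16 replicate 1 (2.14) and eIF3b replicate 1 (1.4) had a peak over part of the same stretch, and these 4 lists shared chr1:110023442-110023502. METTL16 replicate 2 and eIF3b replicate 2 had none. Outside these stretches, METTL16 replicate 2 had a coding peak in exons 7 and 8 (1.6), and eIF3a replicate 1 (1.78) and eIF3b replicate 1 (1.53) had a peak nearer the start of the 3′ UTR. Coverage of the transcript was 14.2% and 6.85% in the METTL16 lists, 13% and 8.37% in the eIF3a lists, and 13.4% and 3.5% in the eIF3b lists (difference 0.94 percentage points, exact permutation p = 0.867). For each protein, the replicates differed by more than the groups did. The highest fold enrichment on AHCYL1, 16.5 in eIF3b replicate 1, belonged to a peak of 91 bases outside the exons of the canonical transcript.

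AHCYL2 (chr7:129225030-129430211, plus strand) codes for a close relative of AHCYL1. METTL16 replicate 2 had 1 peak in the coding part of exon 1 with a fold enrichment of 4.11, and METTL16 replicate 1 had none. eIF3a replicate 1 had a peak in the same exon (2.85), which shared 120 bases with it. eIF3a replicate 2 instead had a peak over exons 3 to 6 (3.72) and one in the 3′ UTR (3.01), so the eIF3a replicates shared the gene but no base. eIF3b replicate 1 had a peak over exons 3 to 5 (3.31), inside that of eIF3a replicate 2, and eIF3b replicate 2 had none. Coverage ranged from 0% to 10.1% and did not separate the proteins (exact permutation p = 0.667).

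MTR (chr1:236795260-236921278, plus strand, transcript of 10547 bases with a 3′ UTR of 6337) codes for methionine synthase. It had 3 and 1 peaks in the METTL16 lists, 8 and 2 in the eIF3a lists, and 4 in each eIF3b list. Ranked among genes by its smallest peak p-value, MTR stood low in the METTL16 lists, at percentiles 18.3 and 12.8. In the eIF3 lists it stood at 45.4 to 74.9. Transcript coverage was 2.58% and 0.863% in the METTL16 lists, 11.7% and 5.41% in the eIF3a lists, and 8.29% and 7.15% in the eIF3b lists. Both METTL16 values were below all eIF3 values, with a difference of -6.42 percentage points (exact permutation p = 0.0667, adjusted 0.65). This order was that of 15.6% of all genes, as for MAT2A. The order was kept when peaks under 4-fold enrichment were dropped, where the difference was -3.35 (exact permutation p = 0.0667).

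By p, the first MTR peaks were one in exons 30 to 32 of eIF3b replicate 2 (log10 p -18.0, fold enrichment 4.33) and one in the 5′ UTR of eIF3b replicate 1 (-15.6, 3.81). By fold enrichment, the highest lay in the 3′ UTR. At about the same place, eIF3a replicate 1 had a peak of 390 bases with a fold enrichment of 12, eIF3a replicate 2 one of 300 bases with 5.81, and METTL16 replicate 1 one of 90 bases with 5.56. These 3 lists shared chr1:236902152-236902241. eIF3b replicate 2 had a peak of 61 bases, chr1:236902002-236902062 (3.08), inside that of eIF3a replicate 1. A second 3′ UTR stretch, chr1:236901162-236901252, was under a peak in both eIF3b lists (4.94 and 4.4) and in METTL16 replicate 1 (3.75). The only MTR peak of METTL16 replicate 2 was in exon 30, with a fold enrichment of 2.17. The METTL16 replicates shared no base of MTR, and no MTR base was under a peak in all 6 lists.

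MTHFD1 (chr14:64388031-64463457, plus strand) codes for an enzyme that interconverts the one-carbon units carried by folate. It had no peak in either METTL16 list. eIF3a replicate 1 had 1 peak, in the 3′ UTR in exon 28 (fold enrichment 1.47). eIF3a replicate 2 had 2 coding peaks in exons 6 and 7 (1.31 and 1.4), so the eIF3a replicates shared no base. eIF3b replicate 2 had 1 peak (1.34). By fold enrichment, these 4 peaks stood at percentiles 1.63 to 4.26 of the peaks in their lists. A stretch of the eIF3b replicate 2 peak matches the pseudogene MTHFD1P1 at 95% identity or more, so its source is uncertain. Both eIF3a replicate 2 peaks, of 61 bases each, were shorter than the shortest match kept, so the search could not flag them. The peak at chr14:64417952-64418012 lies inside the flagged eIF3b replicate 2 peak, so its source is uncertain too. Binding of MTHFD1 by eIF3a rests on these peaks in replicate 2 and on a peak elsewhere in the transcript in replicate 1.

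**Figure D4:**
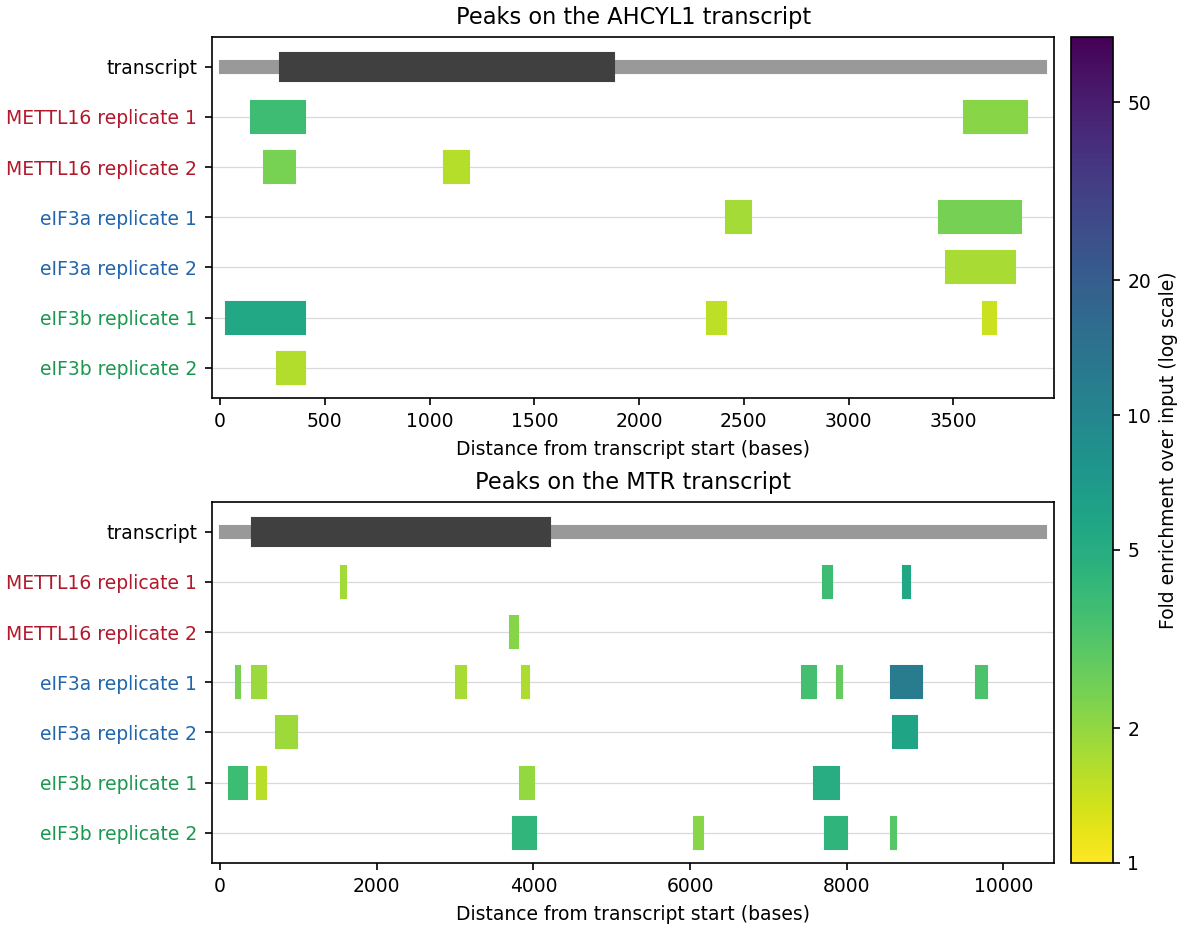
Peaks on the AHCYL1 (upper) and MTR (lower) transcripts in the 6 lists, along each canonical transcript (horizontal axis, bases from its start), with colour for the fold enrichment over input on a log scale. The AHCYL1 peak outside canonical exons is not drawn. The 5′ end of AHCYL1 is covered in the METTL16 and eIF3b lists. Its 3′ end is covered in both eIF3a lists and also in METTL16 replicate 1 and eIF3b replicate 1. MTR has 3 and 1 peaks in the METTL16 lists against 2 to 8 in the eIF3 lists.

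Bases under a peak in all 6 lists were thus found in METTL16 (363 bases) and MAT2A (90 bases) and in neither of the other bound genes, AHCYL1 and MTR. Of 2616 genes with a peak in all 6 lists and a matched transcript, 62.3% had such a base.

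Of 26 further genes of methionine, folate and polyamine metabolism, 23 had a peak in at least 1 list. METTL16 bound 9, eIF3a 9 and eIF3b 8, and 4 were bound by all 3 proteins. Over all genes with a peak in any list, the shares were 42.6%, 42.4% and 60.0%, and 25.2% for all 3 proteins, and no test was made on these counts. Among the 26 were 5 of the methionine cycle and remethylation, of which METTL16 bound 3. MAT1A, the liver form of the adenosyltransferase, had a highest fold enrichment of 2.99 and 2.53 in the METTL16 lists and of 2.4 to 5.87 in the eIF3 lists. BHMT, which remethylates homocysteine with betaine, had a peak in both METTL16 lists (5.74 and 21.4) and in no eIF3 list, as did 0.905% of all genes with a peak. By p, it stood low in these lists, at percentiles 4.27 and 19.1. Its relative BHMT2 had peaks in all 6 lists, of 3.47 and 3.34 in the METTL16 lists and 2.53 to 4.02 in the eIF3 lists.

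Of the transsulfuration genes, CBS was bound by METTL16 (2.46 and 2.29) and had peaks in 3 eIF3 lists. Each list names as many peaks for CBSL, a near-identical copy, so the CBS peaks are uncertain. Of the 7 genes of folate supply, METTL16 bound SHMT2 (1.45 and 3.98), a mitochondrial serine hydroxymethyltransferase, and MTHFD1L (1.76 and 4.98), a mitochondrial formate producer. Of the 8 genes of methionine salvage and polyamines, it bound MRI1 (16.7 and 13.1), which acts in methionine salvage. It also bound AMD1 (18.5 and 5.36), which decarboxylates S-adenosylmethionine for polyamine synthesis, and SRM (11.3 and 1.97), the spermidine synthase. By p, AMD1 stood low in the METTL16 lists, at percentiles 20.5 and 7.37. MTHFD1L stood at 22 and 34.6, and SHMT2, MRI1 and SRM at 42.1 to 98. Among these genes, MTHFD1L and MRI1 had peaks in all 6 lists. None of the 4 genes of small-molecule methyl transfer and its by-products was bound by METTL16.

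**Figure D5:**
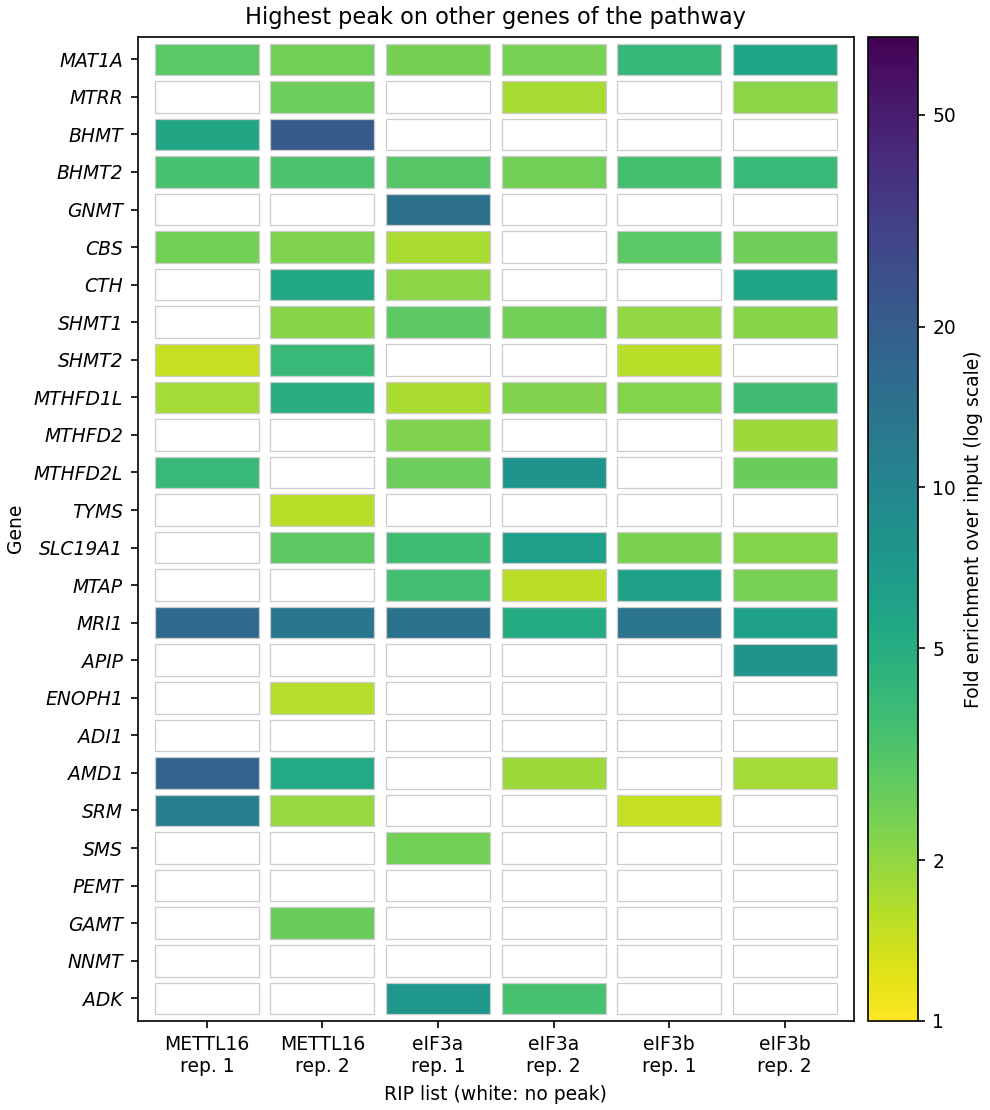
Highest fold enrichment over input (colour, log scale) among the peaks on each of 26 further pathway genes (vertical axis) in the 6 lists (horizontal axis), with white for no peak. MAT1A, BHMT2, MTHFD1L and MRI1 have peaks in all 6 lists, BHMT in the METTL16 lists only, and ADI1, PEMT and NNMT in none.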

How the data were processed

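Peak lists of 6 RIP samples were analysed, 1 list per sample, so replicates were not pooled. The 6 inputs entered through the authors' peak calling, and which input served which RIP sample is not given in the sources used here. Per the study's methods, STAR aligned the reads to GRCh38 and exomePeak, at its defaults, found the peaks. The authors deposited, for each peak, its coordinates, its exonic blocks and a p-value. As scores they deposited log10 values of this and of the adjusted p-value. Enrichment was deposited as a fold, the ratio of RIP to input. The largest deposited adjusted p-value was 0.0501.

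Starts, deposited as counted from 0, were raised by 1. Of 10830 names, 10325 matched GENCODE release 44, and 98.1% to 98.9% of the peak bases of matched genes lay on canonical exons. Coverage is the percent of canonical transcript bases under peak blocks, with the stop codon counted as coding. The 2 METTL16 lists were compared with the 4 eIF3 lists by an exact two-sided permutation test (15 arrangements, smallest p 0.0667, so 0.05 cannot be reached), with Benjamini-Hochberg adjustment over all genes tested (10208 for transcripts, 9214 for coding sequences, 6630 for 3′ UTRs). P-values measure the spread between lists only. A missing peak was counted as 0 coverage. Sequences were read from GENCODE transcripts of GRCh38, folded with RNAfold 2.7.2 and searched for copies with blastn 2.17.0 (at least 95% identity over 100 bases). Python 3.11.15 with numpy 2.4.6 and pandas 2.3.3 was used, and the coverage and test code was tested on simulated data.

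The members, gene lists and tests were chosen with earlier results of these data known. All 8 members are named, further pathway genes with a peak in both METTL16 lists, and the 5 genes most like MAT2A. Some genes of the wider pathway list are not reported here and are in none of its counts. Tests of coding coverage and of stretches in all 6 lists, ranks by p, the G+C content, the GGCX overlap and the search for copies were added after the members' peaks had been seen.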

Additional observations from a re-analysis of the deposited data

How the results depend on the processing

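Over 19 results, 121 alternative values were computed, of which 93 were labelled the same, 21 moved and 7 reversed. A count that changed only modestly, such as from 4 to 6 for eIF3b, was labelled the same. The 93 also include the values with a replicate block, which are the same by construction. The genes bound by METTL16 numbered 4, and 7 with a peak in either replicate, 2 at a fold enrichment of at least 4 and 2 among the 5000 strongest peaks of each list by p, with 4 to 7 when 1 replicate was left out (7 without METTL16 replicate 1). For eIF3a the 6 became 2 and 2 under the fold and 5000-peak settings, and for eIF3b the 4 became 3 and 2. A peak in either replicate gave 6 for eIF3a and 6 for eIF3b. Leaving out 1 replicate gave 6 for eIF3a and 5 for eIF3b. Of the 26 further genes, METTL16, eIF3a and eIF3b bound 9, 9 and 8, and 17, 16 and 16 with a peak in either replicate but 3, 1 and 2 at a fold of at least 4. Over all annotated protein coding genes instead of genes with a peak, the bound shares were 22%, 22% and 31.1%. The MAT2A 3′ UTR difference of -2.34 percentage points became 7.07 at a fold of at least 4, and ranged from -20.1 to 15.4 when 1 list was left out, with 15.4 without METTL16 replicate 1, -20.1 without METTL16 replicate 2, -7.05 without eIF3b replicate 1 and 4.77 without eIF3b replicate 2. AHCYL1 coverage went from 0.94 to -2.4 at a fold of at least 4, and ranged from -2.71 to 4.59 when 1 list was left out, with -1.08 without eIF3b replicate 2, and AHCYL2 went from -2.39 to 1.78. The METTL16 transcript difference of 5.74 stayed between 3.69 and 7.74, and the ratio at the METTL16 3′ UTR stretch, whose alternatives were chosen after seeing the data, between 3.99 and 7.07. The causes were not tested. With a replicate block the differences are the same by construction (-2.34 for the MAT2A 3′ UTR, 5.74 for the METTL16 transcript, 5.31 for the stretch), with exact permutation p of 0.778, 0.222 and 0.111, the last being the smallest that 9 arrangements allow. Labels give the numbers but not that they mark a shared day or culture. Differences for MAT2B, AHCY and MTHFD1 became 0 at a fold of at least 4. With no read counts, what depth adds to any missing peak is unknown.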
